A study of Rattus norvegicus with 48 samples.

Results

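Adenomas of rat liver were compared with control liver in 14 of the 48 Illumina arrays of a study of chemically induced liver cancer in male F-344 rats. Membership followed the sample titles: 4 samples titled adenomas (samples 37, 41, 42 and 43), all taken at 10 months, and 10 samples titled Control (11 to 14, 25 to 27 and 46 to 48). The comparison was repeated against controls 46 to 48 alone, since these 3 lie in the same stretch of sample numbers (37 to 48) as the adenomas. Rats with lesions had received DENA (diethylnitrosamine, 150 mg/kg), rested for 2 weeks, and eaten 0.02% 2-AAF (2-acetylaminofluorene) for 1 week before and 1 week after removal of part of the liver. No carcinogen, diet, surgery or age is listed for the controls, and no group was treated liver outside a lesion, so the lesion, the treatment and the age of the rats cannot be told apart here. Each sample was cut by laser capture from a frozen section stained with hematoxylin and eosin. Nothing in the labels says which rat a lesion came from. Lesions of 1 rat would not be independent, and p-values over lesions may then be too small. The only other group used below is eHCC, 5 early carcinomas from rats on the same treatment, taken at the same 10 months.

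In this model DENA makes initiated hepatocytes, 2-AAF holds back the growth of ordinary hepatocytes, and the loss of liver tissue drives the resistant, initiated cells to grow into foci, nodules and later tumours. Cells of such lesions are known for a shift away from oxidation by cytochrome P450 and towards conjugation, reduction and export of electrophiles. Many genes of the second kind are targets of NRF2, a transcription factor that the adaptor KEAP1 holds at a low level until electrophiles modify it. NRF2 binds with a small MAF protein to the antioxidant response element in the promoters of its targets.

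The values are log2 of the deposited intensities, which had nearly equal medians in all arrays and were not background-subtracted, so the fold changes of dim genes are understated. No probe exceeded 15.54 on this scale, and genes near that value are limited from above. Between 9986 and 10450 probes were detected in the adenomas (detection p under 0.05), with a mean of 10258 ± 201 (SD, n = 4), and between 8323 and 9682 in the controls, with a mean of 9238 ± 391 (SD, n = 10). The 2 groups did not overlap (exact permutation test, two-sided, p = 0.000999, the smallest that 1001 splits allow). Hepatocyte markers fitted the tissue named in the labels. Alb, which encodes serum albumin, lay at 15.24 to 15.35 in the adenomas and 14.56 to 15.34 in the controls at its brighter probe, which was not called, while its second probe fell by 0.30 (adjusted p = 0.00464 by limma). Taken at the brighter probe of each gene, 1 of 6 hepatocyte markers was lower, the fibrinogen chain Fgb (-0.70 ± 0.18 SE). That is near the 12.6% of all features that fell. Adenoma 43 and sample 44, an eHCC, correlated at r = 0.994 over all 13479 features, above the 0.975 to 0.986 between any 2 adenomas. Adenoma 37 with eHCC 38 (0.988) and adenoma 41 with eHCC 40 (0.987) also lay above that range. The labels do not say whether any of these lesions came from the same rat. Sample 39 (eHCC) and sample 29 (aHCC, an advanced carcinoma) stood apart from the other arrays. Both enter the shared spread, and sample 39 also enters the eHCC mean.

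Before the values, promoter sequences are shown for the 4 detoxifying enzymes among the 6 largest rises, because targets of NRF2 moved together. Each is the stretch of 250 bases ahead of the start of transcription in RefSeq (GRCr8), read in the direction of the gene. Capitals mark the core of the antioxidant response element, searched as TGACNNNGC on both strands. When the letters in its middle are TCA the core also contains the site of AP-1, TGACTCA, so both sites cannot be told apart by this search. The windows are chr4:63964171-63964420 on the plus strand for Akr1b8, chr1:210769706-210769955 on the minus strand for Gstp1, chr9:31154739-31154988 on the plus strand for Gsta3 (the first of its 2 starts in RefSeq) and chr6:101230034-101230283 on the minus strand for Gpx2. For Gstp1 the start is the one in the promoter table, and the annotated gene reaches 287 bases beyond the far end of the window, so that window lies inside the gene's span.
Akr1b8: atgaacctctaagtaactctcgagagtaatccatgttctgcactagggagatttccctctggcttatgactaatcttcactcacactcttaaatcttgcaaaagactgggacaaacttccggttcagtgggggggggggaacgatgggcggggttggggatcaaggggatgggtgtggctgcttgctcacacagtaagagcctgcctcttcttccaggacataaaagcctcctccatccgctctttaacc
Gstp1: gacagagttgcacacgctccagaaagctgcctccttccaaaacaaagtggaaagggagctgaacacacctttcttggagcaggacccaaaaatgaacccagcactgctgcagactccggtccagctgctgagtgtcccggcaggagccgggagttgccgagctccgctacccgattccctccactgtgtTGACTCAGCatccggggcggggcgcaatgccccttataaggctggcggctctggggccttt
Gsta3: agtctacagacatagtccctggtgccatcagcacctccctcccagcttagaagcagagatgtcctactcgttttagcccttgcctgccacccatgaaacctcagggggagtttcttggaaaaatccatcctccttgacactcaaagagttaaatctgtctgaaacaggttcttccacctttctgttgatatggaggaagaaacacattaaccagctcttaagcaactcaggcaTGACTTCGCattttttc
Gpx2: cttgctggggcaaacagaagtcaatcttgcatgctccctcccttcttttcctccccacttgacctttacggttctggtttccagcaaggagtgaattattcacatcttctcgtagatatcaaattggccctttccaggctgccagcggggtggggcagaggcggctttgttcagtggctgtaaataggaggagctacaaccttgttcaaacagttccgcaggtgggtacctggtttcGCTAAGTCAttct
The core began 61 bases ahead of the start in Gstp1, 17 in Gsta3 and, on the opposite strand, 13 in Gpx2. Akr1b8, the gene that rose most, had no match in this window. In promoters reaching 50 bases past the start, 12.1% of all 33469 in the RefSeq table held the core, as did 14.7% of the 8070 of tested genes (7710 of 9273 genes matched). The share was 16.5% for genes higher in the adenomas, 14.7% for genes lower, and 9 of 30 promoters for the listed NRF2 targets. A match is a description of letters and not of binding.

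Against all 10 controls, 3510 of 13479 features (26%) passed at an adjusted p under 0.05 by limma, and are said below to have risen or fallen. Of these 1818 (13.5%) were higher in the adenomas and 1692 (12.6%) lower, and the median log2 change over all features was -0.006. Changes of more than 1 on the log2 scale were found for 459 features that rose and 451 that fell, and changes of more than 3 for 43 and 32. Adenomas and controls did not overlap at 1218 higher (9.04%) and 1068 lower (7.92%) features. Against controls 46 to 48 alone 2515 passed (18.7%), 1274 higher (9.45%) and 1241 lower (9.21%). Both comparisons called 2224 features in the same direction (16.5%; 8.81% higher and 7.69% lower), which is 63.4% of the first list and 88.4% of the second, and 0 features were called in opposite directions. These 3 controls differed from the other 7 at 61 features (0.453%), being higher at 47 (0.349%) and lower at 14 (0.104%). That count was 311 with array weights and 154 without samples 39 and 29. In captured tissue, fewer cells of a type and less RNA per cell cannot be told apart.

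**Figure D1:**
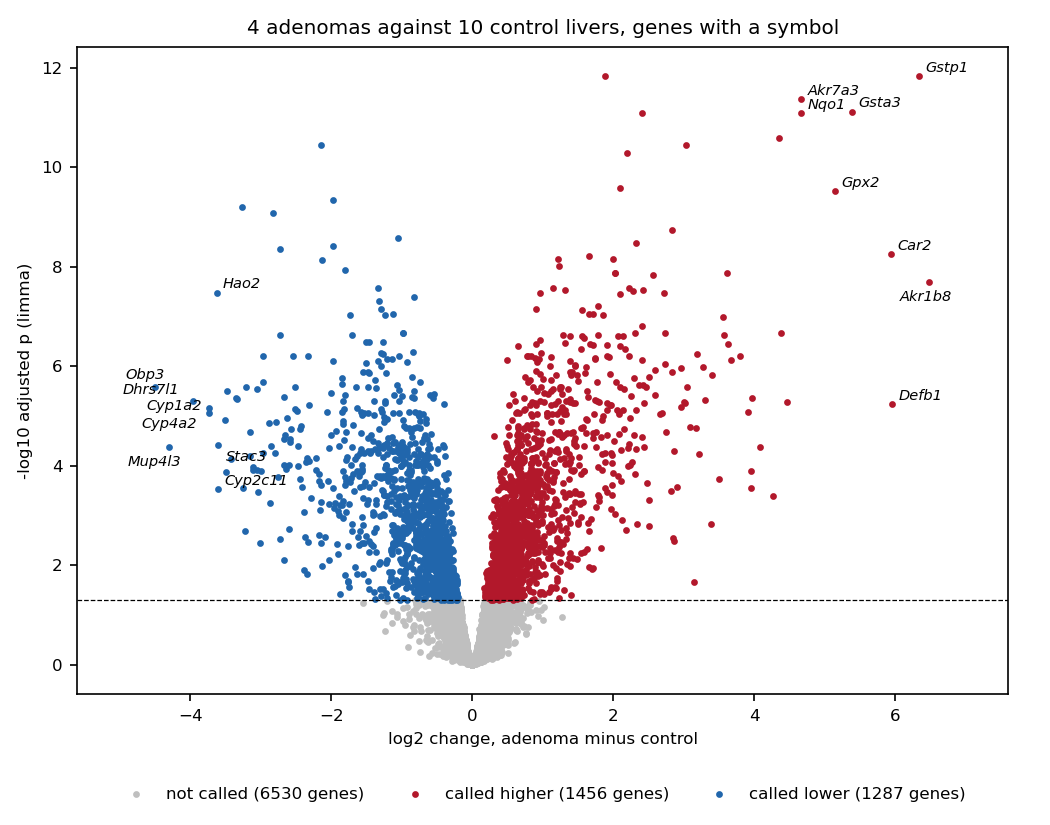
Change in each gene with a symbol, 4 adenomas against 10 control livers. The horizontal axis is the log2 change (adenoma minus control), the vertical axis is -log10 of the limma adjusted p, the dashed line is the threshold, and colours mark the 1456 genes called higher, the 1287 called lower and the rest. The largest changes are rises, with Akr1b8, Gstp1, Defb1 and Car2 near 6, while the largest falls lie between -3 and -5.

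Enzymes that reduce, conjugate and export electrophiles made up most of the largest rises. Akr1b8, an aldo-keto reductase that reduces lipid aldehydes and a given marker of these lesions, had log2 intensities of 14.26, 14.19, 14.35 and 13.36 in adenomas 37, 41, 42 and 43, against 7.27 to 7.86 (median 7.51) in the controls. All 4 adenomas stood far above every control, with adenoma 43 the lowest. The gene was 89.2-fold higher (log2 change 6.48 ± 0.76 SE, adjusted p = 2.06e-08), or 268-fold after background correction and quantile normalization with neqc. Gstp1, a pi-class glutathione transferase (the placental form) that serves as a histological stain for rat foci, read 15.42, 15.49, 15.54 and 15.48, the ceiling of the array, against 8.14 to 9.90. Its 81.1-fold difference (6.34 ± 0.50 SE, adjusted p = 1.49e-12) is therefore limited from above, and its second probe gave 5.56. Gsta3, an alpha-class transferase, was detected in 5 of 10 controls and in all 4 adenomas, which read 13.02, 12.95, 13.17 and 12.88 against 7.18 to 8.31. It rose 41.9-fold (124-fold after neqc). Gpx2, a glutathione peroxidase of gut epithelium, read 12.52, 13.09, 13.29 and 12.09 against 7.34 to 8.19 and rose 35.5-fold (104-fold after neqc).

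Nqo1, the quinone reductase often read as a gauge of NRF2 activity, had 14.11, 14.36, 14.30 and 14.03 in the adenomas and 9.27 to 9.78 in the controls. The adenomas lay within 0.4 of each other, and the gene was 25.4-fold higher (4.67 ± 0.40 SE). Akr7a3, which reduces the dialdehyde of aflatoxin, rose equally far (25.4-fold), and Abcc3, a pump that exports glucuronides and glutathione conjugates, rose 20.5-fold (43.7-fold after neqc). Of 33 listed NRF2 targets tested, 27 rose and 0 fell, with a median log2 change of 1.79, beside 13.5% of all features rising, and 25 rose against controls 46 to 48. Both subunits of the enzyme that starts glutathione synthesis, named here after their values were seen, were among them: Gclc rose 12.3-fold and Gclm 9.13-fold. The NRF2 list was chosen with earlier results of these data known, so its count is a description only. The list was not uniform, since Hmox1, heme oxygenase, differed by 0.06 ± 0.37 SE and Fth1, ferritin heavy chain, by -0.14 ± 0.10 SE, neither called. Among 7 regulators of the pathway 2 rose, both of them small MAF proteins: Mafg (12.48, 12.06, 12.52 and 12.11 against 10.40 to 11.08, 2.56-fold) and Mafk (1.56-fold). The message for NRF2 itself (Nfe2l2) showed a difference of 0.29 ± 0.21 SE with an adjusted p = 0.364 by limma. For Keap1 the difference was 0.24 ± 0.14 SE, with an adjusted p = 0.21 by limma.

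**Figure D2:**
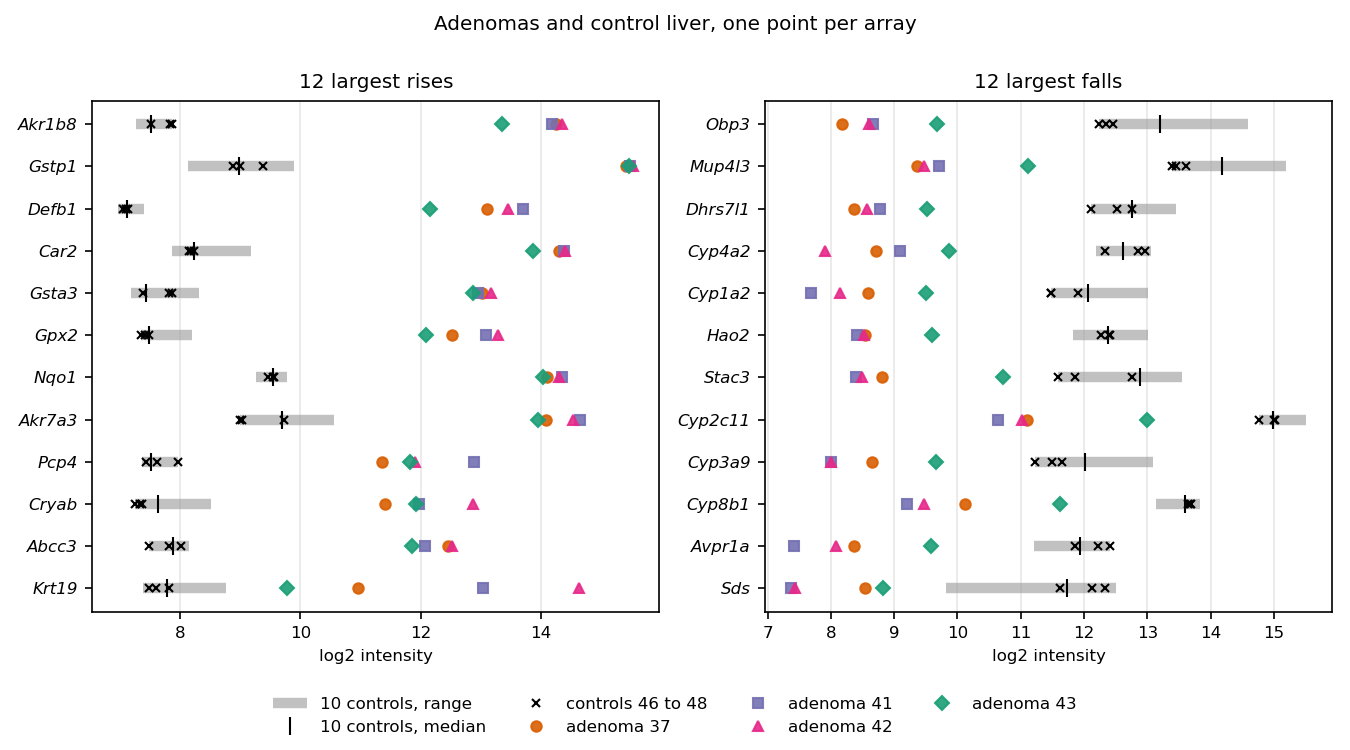
Log2 intensity (horizontal axis) of the 12 genes with the largest rises and the 12 with the largest falls, chosen among genes called against both sets of controls. Coloured symbols are the 4 adenomas, the grey bar is the range of the 10 controls with their median, and crosses are controls 46 to 48. Adenomas and controls do not overlap in any of the 24 genes, and adenoma 43 is the highest adenoma in all 12 falls.

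The families of these enzymes did not move as a whole. Beside the counts here, 13.5% of all features rose and 12.6% fell. The 2 falls among glutathione transferases are near or below that share. Of 22 glutathione transferases 9 rose and 2 fell: Gsta4 was 3.45-fold and Gsta2 3.27-fold higher, while Gstm7 was 5.80-fold lower and Gstk1, the mitochondrial and peroxisomal member, was 1.94-fold lower (against controls 46 to 48 the adjusted p by limma was 0.0568). Of 16 aldo-keto reductases 8 rose and 3 fell. Akr1c19 rose 15.6-fold and Akr1c15 6.72-fold, whereas Akr1c3 was 6.17-fold, Akr1c2 5.31-fold and Akr1c14 1.73-fold lower. After neqc the log2 change of Akr1c15 was 3.98 and that of Akr1c3 -3.27. Of 10 carbonic anhydrases, which interconvert carbon dioxide and bicarbonate, 1 rose, near the share over all features, and 4 fell. Car2, a cytosolic form and the other given marker, read 14.30, 14.39, 14.40 and 13.88 against 7.86 to 9.18 and rose 61.7-fold (5.95 ± 0.65 SE, adjusted p = 5.52e-09; 105-fold after neqc). Car3, the abundant form of male rat liver, read 12.57, 12.27, 12.72 and 13.95 against 14.98 to 15.34 and was 5.08-fold lower (-2.35 ± 0.75 SE, adjusted p = 0.0151). Every adenoma was below every control for Car3, but its adjusted p by limma was 0.0899 against controls 46 to 48 and 0.0601 without adenoma 41. Mitochondrial Car5a was 5.96-fold lower and read 8.88, 8.26, 8.08 and 9.62 against 10.88 to 11.82. The 2 other falls, of Car1 (-0.82) and Car8 (-0.52), were small, and that of Car8 was not called without any 1 adenoma (adjusted p by limma of at most 0.105, without 37).

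Several other rises were in genes that control liver hardly expressed. Defb1, an antimicrobial beta-defensin of epithelia, was detected in 4 of 4 adenomas (13.11, 13.71, 13.46 and 12.16) and 0 of 10 controls, and was at least 50.7-fold higher. The bound sets the controls at the lowest detected signal on each array. In all, 121 features were detected in every adenoma and no control, and 7 in every control and no adenoma. Pcp4, a small regulator of calmodulin known from Purkinje cells, read 11.35, 12.89, 11.91 and 11.83 and rose 22.0-fold (66.4-fold after neqc). Cryab, a small heat shock protein, read 11.40, 11.98, 12.87 and 11.93 and rose 20.8-fold (56.7-fold after neqc). All 12 listed markers of foci and nodules rose (11 against controls 46 to 48), with a median log2 change of 2.91, beside 13.5% of all features rising. The list was made of known markers of such lesions, with earlier results of these data known, so its count is a description only. Akr1b8, Gstp1, Akr7a3, Aldh3a1 and Ephx1 are also in the NRF2 list, so the 2 counts are not independent. The list includes the transport P-glycoprotein Abcb1b (15.5-fold) and the aspartic protease Ctse (10.4-fold), both named after their values were seen. After neqc their log2 changes were 4.79 and 4.60. Of 18 S100 proteins and annexins, which bind calcium, 8 rose and 0 fell, led by Anxa1 (10.6-fold), Anxa2 (9.07-fold), S100a11 (7.23-fold) and S100a6 (5.68-fold). After neqc the log2 changes of Anxa1, Anxa2 and S100a6 were 4.07, 3.95 and 3.24.

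**Figure D3:**
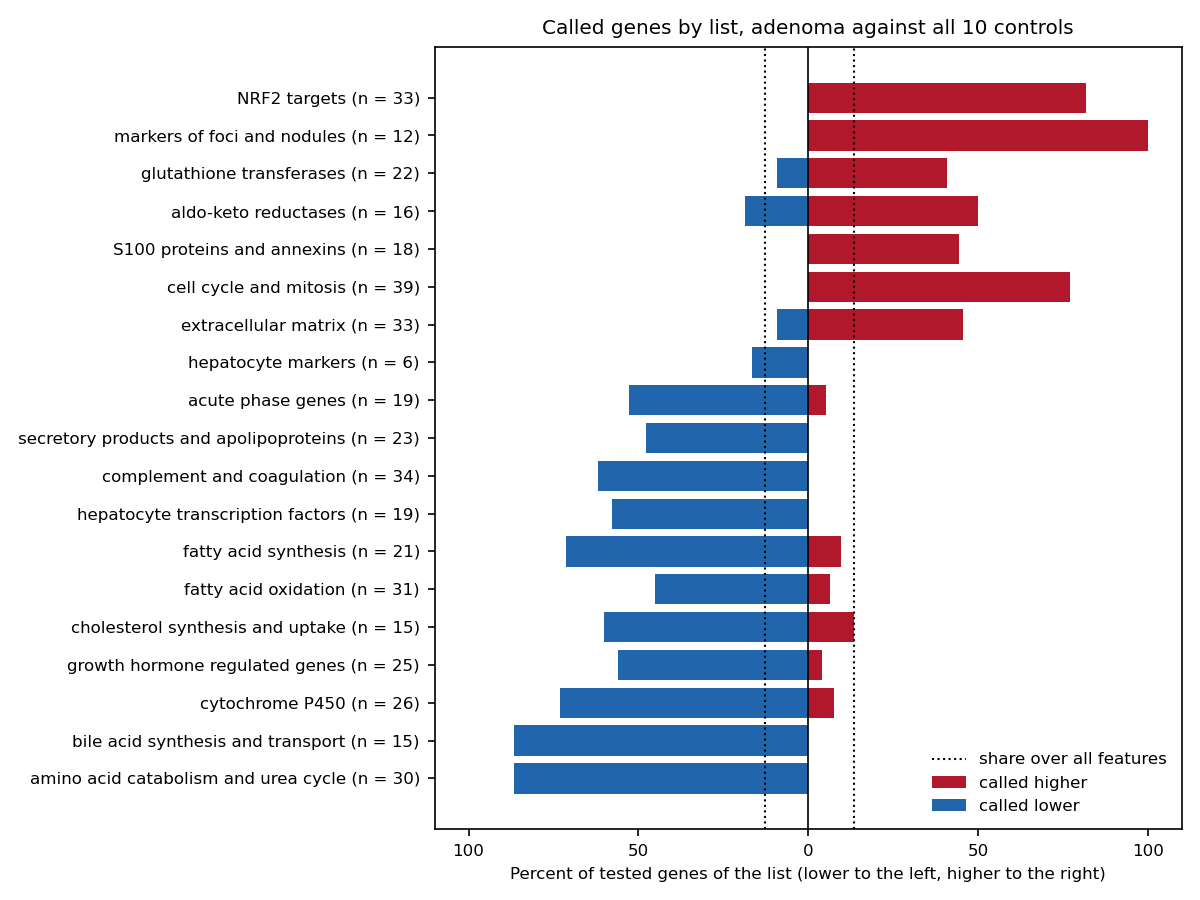
Share of the tested genes of each list that rose (red, to the right) or fell (blue, to the left) in adenomas against all 10 controls. The horizontal axis is percent of tested genes, n is the number tested, and dotted lines mark the shares over all 13479 features (13.5% higher and 12.6% lower). NRF2 targets and markers of foci, 2 lists that share members, rose with no member falling. Amino acid catabolism and bile acid genes fell with no member rising.

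The falls began with secreted and oxidising proteins of adult male liver. Obp3, an alpha-2u globulin of the lipocalin family, read 8.17, 8.67, 8.60 and 9.67 against 12.24 to 14.58 (median 13.20) in the controls and was 22.7-fold lower (-4.50 ± 0.68 SE, adjusted p = 2.64e-06). Its change was -3.57 against controls 46 to 48, which held its 3 lowest control values. Mup4l3, a gene of the related major urinary protein family, was 19.7-fold lower. Not every member of that family was called. Mup4 (-0.91), Mup5 (-0.28) and the brighter probe of Mup4l4 (-0.74) were not, while the second probe of Mup4l4 gave -3.79. Growth hormone, released in pulses in male rats, sets the level of many such genes through the kinase JAK2 and STAT5b. Of 25 listed genes that depend on it 14 fell and 1 rose, beside 12.6% and 13.5% of all features. Cyp2c11, the dominant male-specific P450, read 11.09, 10.64, 11.02 and 12.99 against 14.77 to 15.51 and was 12.2-fold lower. Cyp2c12, the female-specific counterpart, went the other way: it read 14.63, 14.11, 13.69 and 13.69 against 8.80 to 10.70 and was 15.5-fold higher (3.96 ± 0.83 SE, adjusted p = 0.000277). Cyp2c7, which is higher in female than in male rats, fell (8.06-fold lower). A second, dimmer probe of Cyp2c7 gave -0.69. The receptor Ghr (2.60-fold lower), Stat5b (1.52-fold lower) and Igfals, the serum carrier of insulin-like growth factors (4.98-fold lower), all named after their values were seen, fell too. The 10 members not called include Bcl6 (0.27), A1bg (0.14), Sult2a2 (-0.01), Prlr (-0.48) and Cish (-0.24, but called lower against controls 46 to 48). The P450 genes of this list are counted again in the P450 list, so the 2 counts are not independent. The part of growth hormone in these changes was not tested.

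Of 26 cytochrome P450 genes 19 fell and 2 rose, beside 12.6% and 13.5% of all features, with a median log2 change of -1.64. The risers were Cyp2c12 and Cyp26a1, which clears retinoic acid (0.69, or 1.34 after neqc). The call of Cyp26a1 was lost against controls 46 to 48 (adjusted p = 0.175 by limma) and without any of adenomas 37, 41 and 43 (at most 0.254, without 41). Besides Cyp2c11, the largest falls were in other families. Cyp4a2, an omega-hydroxylase of fatty acids, was 13.4-fold lower, Cyp1a2, which activates arylamines such as 2-AAF, 13.3-fold and Cyp3a9 11.4-fold (22.0-fold and 17.7-fold for the last pair after neqc). Cyp1a2 read 8.59, 7.69, 8.15 and 9.50 against 11.48 to 13.01, with no overlap. Cyp2e1, which activates nitrosamines, read 14.47, 12.55, 13.82 and 15.12 against 15.08 to 15.43, a difference of -1.27 that was not called (adjusted p = 0.102 by limma), but was without samples 39 and 29 in the shared spread (adjusted p = 0.00124 by limma). Other genes among the largest falls were Dhrs7l1 (15.5-fold lower), Hao2, a peroxisomal hydroxyacid oxidase (12.3-fold), Stac3, an adaptor known from muscle (12.2-fold), and Avpr1a, the vasopressin receptor of hepatocytes (11.1-fold; 20.4-fold after neqc).

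Bile acid genes fell along most of the pathway, 13 of 15 falling and 0 rising, with a median of -1.89. Beside the counts here, 12.6% of all features fell and 13.5% rose. Cyp7a1, the rate-limiting enzyme, read 9.05, 7.68, 8.92 and 10.18 against 11.02 to 13.03 and was 8.58-fold lower. Cyp8b1, which directs synthesis towards cholic acid, read 10.13, 9.20, 9.47 and 11.62 against 13.14 to 13.84 and was 11.2-fold lower. The conjugating step was lower too, Slc27a5 by 9.47-fold and Baat by 4.89-fold, and so were the uptake carriers Slco1b2 (8.19-fold) and Slc10a1 (3.70-fold). Baat and Slc10a1 were named after their values were seen. Genes that break down amino acids or make urea fell about as often, 26 of 30 with 0 rising and a median of -1.58. Sds, serine dehydratase, read 8.54, 7.37, 7.43 and 8.82 against 9.83 to 12.51 and was 10.7-fold lower (23.4-fold after neqc), Oat, ornithine aminotransferase, 8.86-fold and the glycine methyltransferase Gnmt 8.29-fold. Arg1, the last enzyme of the urea cycle, was at 13.46 to 13.82 in the adenomas, inside the control range of 13.30 to 14.21 (-0.18 ± 0.25 SE, not called), and Cps1, the first, differed by -0.90 (adjusted p = 0.121 by limma, and 0.0109 without samples 39 and 29).

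Lipid and sugar metabolism changed by branch. Beside the counts here, 13.5% of all features rose and 12.6% fell. The 2 risers of each lipid list are near or below that share. Of 31 genes of fatty acid oxidation 14 fell and 2 rose. Angptl4, a PPAR-alpha target that inhibits lipoprotein lipase, was 7.07-fold lower at its brighter probe and -0.45 on the log2 scale at its dimmer one, and Pdk4, which shuts pyruvate out of oxidation, was 3.24-fold lower. After neqc their log2 changes were -3.61 and -2.72. Acaa2, the thiolase that ends each turn of mitochondrial oxidation, rose 2.14-fold and Acadl, a dehydrogenase for long chains, 1.33-fold (adjusted p = 0.0641 by limma without controls 25 to 27). Of 21 genes of fatty acid synthesis and storage 15 fell and 2 rose: Fads2, a desaturase, was 5.72-fold lower, Me1, malic enzyme, 2.24-fold higher, and Cd36, a fatty acid transporter, was 4.73-fold higher (12.46, 13.01, 12.09 and 11.95 against 9.46 to 11.11). Of 15 cholesterol genes 9 fell (5 against controls 46 to 48) and 2 rose. Sc5d (-1.23) and Dhcr7 (1.13), which act next to each other at the end of synthesis, went opposite ways, and the other riser, the regulator Srebf2, was near background (0.21) and not called without adenoma 37 (adjusted p = 0.162 by limma) or 41 (0.127). In the glucose pathways, Pck1, which commits carbon to gluconeogenesis, read 12.55, 10.81, 10.64 and 12.21 against 13.09 to 14.89 and was 6.77-fold lower. Liver-type Pklr was 3.39-fold lower, while isoforms of other tissues, Aldoa (2.32-fold) and Pfkp (2.35-fold), rose. The 3 other risers of 23 tested, beside 7 that fell, were Gpi (1.81-fold), Pck2 (1.78-fold) and Pfkm (1.60-fold; 1.65 on the log2 scale after neqc), the last named after its values were seen. Without adenoma 42 the rise of Pfkp had an adjusted p = 0.0646 by limma. Taldo1, transaldolase of the pentose phosphate pathway, rose 3.62-fold (14.90, 15.20, 15.03 and 14.56 against 12.95 to 13.28), and with Me1 it made 2 risers of 7 tested sources of NADPH.

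Secreted proteins fell in part, beside 12.6% of all features falling and 13.5% rising. Of 34 complement and coagulation genes 21 fell and 0 rose, led by C6 (6.98-fold lower) and the mannose-binding lectin Mbl2 (6.33-fold; -3.39 on the log2 scale after neqc). Of 23 other secretory products 11 fell and 0 rose, led by the apolipoproteins Apoa5 (8.63-fold) and Apoa2 (6.61-fold), while Tf, transferrin, differed by 0.29 and Serpina1 by 0.13, neither called. Without controls 46 to 48 Tf was called (0.40, adjusted p = 0.03 by limma). Of 19 acute phase genes 10 fell and 1 rose. The riser was Lbp, which binds lipopolysaccharide, at 11.72, 11.18, 11.24 and 12.08 against 9.16 to 10.20 (3.68-fold). Fgl1, a liver-secreted fibrinogen-like protein, was 7.27-fold lower and Saa4 5.13-fold. Crp was 3.15-fold lower, with an adjusted p = 0.102 by limma without adenoma 41.

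Among 19 hepatocyte transcription factors 11 fell and 0 rose, beside 12.6% and 13.5% of all features. Against controls 46 to 48 the counts were 8 and 1, the riser being Nr1i3 (1.03, adjusted p = 0.0101 by limma). Nr1i3, named after its values were seen, was not called against all 10 controls (0.45). Onecut1 (HNF6) read 8.25, 7.93, 8.67 and 8.48 against 9.18 to 12.93 (median 11.91) and was 7.99-fold lower (adjusted p = 0.000128 by limma; -3.63 on the log2 scale after neqc). Its lowest control still lay above the highest adenoma. Foxa3 was 2.40-fold and Nr1h4, the bile acid receptor FXR, 2.22-fold lower. Cebpa was 2.17-fold lower, with an adjusted p = 0.113 by limma against controls 46 to 48. Hnf4a, the nuclear receptor at the centre of this network, differed by -0.26 ± 0.16 SE (adjusted p = 0.253 by limma).

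Genes of both ends of the liver lobule fell. Of 17 periportal genes 10 fell and 0 rose, and of 14 Wnt-dependent perivenous genes 8 fell and 2 rose. Over all features 12.6% fell and 13.5% rose, so the 2 perivenous risers are near that share. The perivenous risers were the ammonia carrier Rhbg (9.89, 10.22, 10.11 and 10.91 against 7.22 to 8.91, 4.70-fold; 9.06-fold after neqc) and Gstm1 (2.34-fold), which the NRF2 list also holds. Axin2, a general reporter of Wnt signalling, was near background in both groups (7.14 to 7.61 against 7.13 to 8.18) and differed by -0.17 (not called). Human adenomas are sorted by markers, with high CRP and SAA in the inflammatory kind and high LECT2 in the kind with active beta-catenin. Of 11 rat counterparts 7 fell and 1 rose. Crp and Saa4 fell, and Lect2 was 3.02-fold lower (adjusted p = 0.100 by limma against controls 46 to 48). The riser was the glucuronosyltransferase Ugt2b7, at 10.67, 13.55, 11.62 and 9.48 against 6.99 to 7.59 (16.9-fold; 66.1-fold after neqc).

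Genes of cell division rose. Of 39 tested 30 rose and 0 fell, with a median log2 change of 0.83, beside 13.5% of all features, and 25 rose against controls 46 to 48. Ccnb2, a mitotic cyclin, read 10.52, 10.68, 10.41 and 10.80 against 7.62 to 8.96 and was 5.71-fold higher, its partner kinase Cdk1 5.17-fold and Prc1, which bundles the spindle midzone, 4.08-fold. After neqc their log2 changes were 3.36, 3.60 and 3.55. Of the 6 subunits of the replicative helicase in the list, looked at after their values were seen, Mcm6 (0.97) and Mcm7 (0.51) rose and the others differed by 0.11 to 0.29 (not called). Against controls 46 to 48 Mcm7 was not called either (adjusted p = 0.148 by limma). Myc read 10.62, 10.83, 10.81 and 10.57 against 7.75 to 10.26 and rose 3.94-fold, but controls 46 to 48 held 10.26, 9.56 and 9.60 and were themselves 1.54 above the other controls (adjusted p = 0.0497 by limma). Against them the difference was 0.90 (adjusted p = 0.138 by limma). Among 16 targets of p53 6 rose (2 against controls 46 to 48) and 3 fell (4), with Gdf15, a stress-induced cytokine, 3.48-fold higher and Mdm2, which degrades p53, 2.21-fold (adjusted p = 0.0731 by limma against controls 46 to 48). After neqc the log2 change of Gdf15 was 2.55. The falls, of Sesn1 (-0.69), Ei24 (-0.66) and Xpc (-0.33), were small, and Xpc was not called without any 1 adenoma (adjusted p by limma of at most 0.114, without 43). Beside the falls counted here and below, 12.6% of all features fell, and the 3 of 16 are near that share. In the unfolded protein and integrated stress responses 9 of 25 fell and 4 rose: Xbp1 (1.99-fold lower) and Herpud1 (2.37-fold lower) fell, and Phgdh, which starts serine synthesis, rose 3.44-fold (3.49 on the log2 scale after neqc). The other risers were Slc7a11, the cystine carrier (0.57), Atf3 (0.55) and Asns (0.39), all near background in the controls. Together the 4 risers of 25 are close to the 13.5% of all features. Atf3 was not called without adenoma 37 (adjusted p = 0.112 by limma), 41 (0.061) or 43 (0.0541), nor Asns without adenoma 42 (0.0517). Of 7 fetal and tumour genes 4 rose and 1 fell: Akr1b8, Aldh1a1, a retinal dehydrogenase (7.78-fold higher), Gpc3 and Tff3 rose, and Spink1 fell by 0.27 (adjusted p by limma of at most 0.133 without any of adenomas 41, 42 and 43). The 1 fall of 7 is near the share over all features. Without adenoma 42 neither Gpc3 (adjusted p = 0.191 by limma) nor Tff3 (0.291) was called. Akr1b8 and Aldh1a1 are also in the NRF2 list, so the 2 counts are not independent. Afp, alpha-fetoprotein, read 9.75, 9.92, 10.02 and 10.10 against 10.69 to 11.13, a difference of -0.92 that was not called (adjusted p = 0.0679 by limma) although the groups did not overlap.

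Of 33 genes of the extracellular matrix tested 15 rose and 3 fell, beside 13.5% and 12.6% of all features. The 3 falls are near or below that share. Fbln1, a basement membrane protein, read 10.91, 9.67, 10.89 and 12.22 against 7.78 to 8.76 (6.35-fold), Mgp, an inhibitor of calcification, rose 5.59-fold and the proteoglycan Dcn 4.34-fold, while Tgfbi was 2.65-fold, Col18a1 1.74-fold and Fn1, fibronectin, 1.49-fold lower. Fn1 was not called without adenoma 37 (adjusted p = 0.0616 by limma), 41 (0.105) or 42 (0.13), nor Col18a1 without controls 11 to 14 (0.0598). After neqc the log2 change of Fbln1 was 3.36. Of 6 stellate cell and fibroblast markers 3 rose, all of them also in the matrix list (Col1a2, Col3a1 and Dcn), so the second count is not independent of the first. Their summed intensity was 5513 to 26619 in the adenomas, lowest in 41 and highest in 43, and 3982 to 6047 in the controls. Des, desmin of stellate cells, which is not in the matrix list, was near background and differed by -0.24 (not called). Col3a1 had an adjusted p = 0.0981 by limma without adenoma 43. The part of these cells in the matrix result was not tested.

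Cell type markers are counted next, beside 13.5% of all features rising and 12.6% falling. Each list holds 2 to 6 tested genes, so a single call says little about a cell type. Of 6 biliary and progenitor markers 3 rose. Krt19, a keratin of bile ducts, read 10.96, 13.04, 14.63 and 9.78 against 7.38 to 8.76, a 19.3-fold rise (4.27 ± 0.92 SE, adjusted p = 0.000405; 43.4-fold after neqc) spread over 4.85 on the log2 scale between adenomas. Cd24 (7.50-fold; 3.73 on the log2 scale after neqc) and Epcam (4.96-fold) were the other risers. Krt7, another duct keratin, was detected in 0 of 4 adenomas and Spp1, osteopontin, differed by 0.16 (not called). The list's summed intensity was 4698 to 40641 against 1287 to 1912. Of 4 macrophage markers 2 fell: Marco, a scavenger receptor of Kupffer cells, read 9.75, 7.68, 7.62 and 8.19 against 9.82 to 11.29 (5.09-fold lower; -3.19 on the log2 scale after neqc), and Cd163 fell by 0.63, with an adjusted p = 0.161 by limma against controls 46 to 48 and 0.27 without adenoma 42. C1qa differed by -0.38 and C1qb by -0.22, neither called, and the 4 summed to 3552 to 10496 against 6744 to 14082. Of 6 T, B and NK cell markers 0 passed, with sums of 1401 to 1776 against 1301 to 1807. Of 2 endothelial markers Vwf fell (1.73-fold lower; -1.48 on the log2 scale after neqc), and of 3 red cell markers Hbb fell (2.46-fold lower; adjusted p = 0.0597 by limma without adenoma 42).

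The 4 adenomas differed from each other in a limited set of genes. The median SD over all features was 0.141 among adenomas and 0.179 among controls, but 92 features had an SD above 1 among the 4 adenomas against 15 among the 10 controls. Adenoma 42 stood more than 1 above the other 3 at 60 features and adenoma 43 at 85, against 15 for adenoma 37 and 13 for adenoma 41. Vil1, villin of the intestinal brush border, read 12.16 in adenoma 42 and 7.63, 8.10 and 8.00 in adenomas 37, 41 and 43. Tff3, a mucosal trefoil peptide, read 11.53 in adenoma 42 against 7.55, 7.83 and 8.52, and the surface proteoglycan Gpc3 11.35 against 8.09, 9.11 and 8.90. Without adenoma 42 none of the 3 was called, the adjusted p by limma being 0.371 for Vil1, 0.291 for Tff3 and 0.191 for Gpc3. Against controls 46 to 48 Vil1 (adjusted p = 0.0711 by limma) and Tff3 (adjusted p = 0.0802 by limma) were not called either. Cpa1, a digestive carboxypeptidase known from pancreas, read 10.19, 11.14, 12.39 and 7.51, so that adenoma 43 lay in the control range of 7.23 to 7.68 (adjusted p = 0.0534 by limma without adenoma 42). After neqc the log2 changes of Vil1, Tff3, Gpc3 and Cpa1 were 3.01, 2.99, 2.76 and 4.19.

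Adenoma 43 lay nearest to control liver at most of the largest changes. It was the highest adenoma in all 12 of the largest falls and the lowest in 9 of the 12 largest rises. Over all called features it was the adenoma closest to control at 710 of 1692 that fell and 784 of 1818 that rose. The mast cell proteases Cma1 and Mcpt10, named after their values were seen, read 10.54 and 10.01 in adenoma 43, 8.85 and 8.55 in adenoma 37, and 6.86 to 7.37 in adenomas 41 and 42. Smoc2, a secreted matrix protein, read 10.48, 7.39, 11.15 and 12.44, with adenoma 41 below the lowest control (7.90). Fmo1, a flavin monooxygenase, read 11.07, 8.33, 9.56 and 12.38 against 10.65 to 12.27 and was not called (adjusted p = 0.213 by limma).

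**Figure D4:**
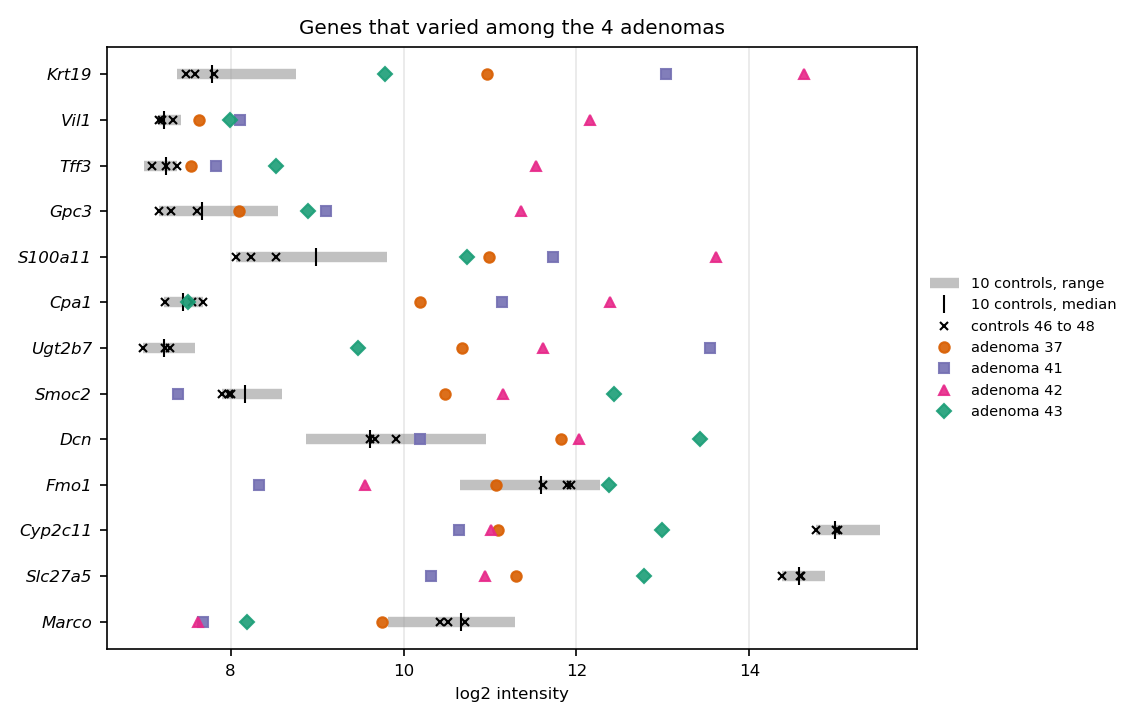
Log2 intensity (horizontal axis) of 13 genes that varied among the adenomas, with symbols as for the largest changes. Adenoma 42 stands above the other 3 for Krt19, Vil1, Tff3 and Gpc3, and adenoma 43 for Dcn, Cyp2c11 and Slc27a5.

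Against the 5 eHCC of the same age, 0 of 13479 features passed (0%), and 173 had an unadjusted p under 0.05 by limma. The 95% interval of the difference reached 0.268 to either side at the median feature. That bounds the deposited signal only, which was not background-subtracted, so differences of dim genes are understated. The interval was wide for the genes that changed most against control. For the 12 largest rises the difference (adenoma minus eHCC) was between -0.67 (Cryab) and 0.14 (Akr7a3), with Gstp1 at the ceiling of the array in both groups, where a difference cannot be read. For the 12 largest falls it was between 0.30 (Hao2) and 2.58 (Cyp2c11), every one on the side of control liver. Adenoma 43 was the highest adenoma in all 12, which lifts the adenoma means, and the differences without adenoma 43 are not given here. Without sample 39, which stood apart, again 0 features passed (151 at an unadjusted p under 0.05), the rises lay between -0.81 and 0.44 and the falls between 0.08 and 2.13. The eHCC held 7.06 to 12.38 (median 7.98) of Cyp2c11, and the interval of the difference ran from 0.84 to 4.32 (2.13, from 0.33 to 3.93, without sample 39). Car3 differed by 2.66, with an interval from 0.96 to 4.36 (2.02, from 0.31 to 3.73, without sample 39), the eHCC reading 7.68 to 13.65. None of these passed after adjustment over all features, and the 2 lesion types were compared with the same controls.

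**Figure D5:**
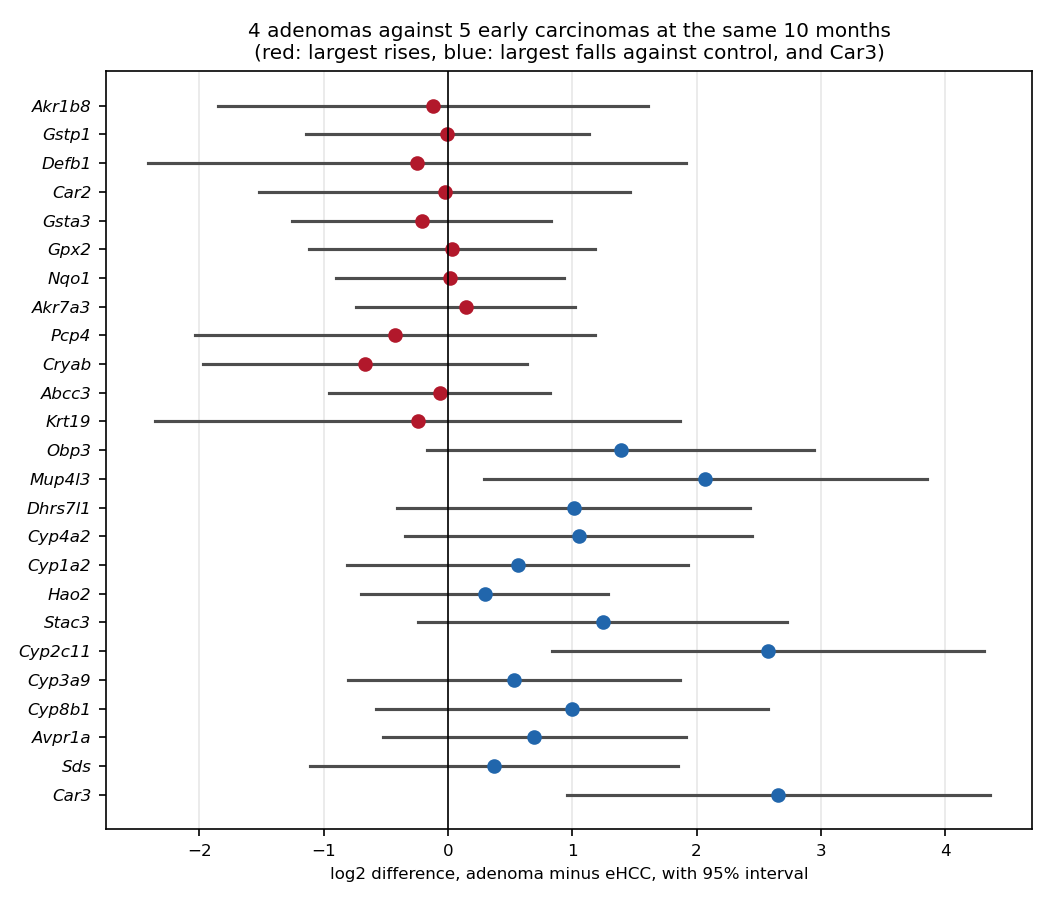
Difference between 4 adenomas and 5 eHCC at the same 10 months (horizontal axis, log2, adenoma minus eHCC) with its 95% interval from limma, for the 12 largest rises (red) and 12 largest falls (blue) against control, and Car3. Rises lie around 0 and falls to the right of it, and no gene passed after adjustment.

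Some changes depended on which controls were used. The 4 called genes whose value moved most between the 2 sets were Myc, Inmt, Obp3 and Rhoa. Inmt, an indole methyltransferase, was 6.29-fold lower (7.43, 7.18, 7.24 and 7.65 against 8.82 to 11.57), with a change of -2.65 against all controls and -1.68 against controls 46 to 48 (-4.33 against all controls after neqc). Rhoa, a small GTPase of the cytoskeleton, rose 2.31-fold against all controls, 1 of which read 9.26 beside a median of 12.14, and differed by 0.33 (adjusted p = 0.703 by limma) against controls 46 to 48. Its call was also lost without any of adenomas 41, 42 and 43 and without controls 25 to 27. Of the 2 given markers, Akr1b8 changed by 6.31 and Car2 by 6.06 against these 3 controls, close to their values against all 10.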

How the data were processed

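Illumina 1-colour arrays measured RNA of laser-captured liver lesions and control liver. The deposited intensities were, per the submitters' processing notes, made with BeadStudio 3.0.19.0. Their array medians were 159 to 159.6, so they were already normalized, and their lowest value was 96.8, so background was not subtracted. The planned neqc step for raw tables was therefore used as an alternative only. The deposited detection p-values of each probe served as a filter: 13679 of 22523 probes had p under 0.05 in at least 4 arrays. One symbol was given for 13793 probes, several for 0 and none for 8730, and the brightest probe stood for a gene, which left 13479 features (9273 genes and 4206 unnamed probes). The 48 arrays, in 6 groups (7 with controls 46 to 48 apart), were fitted on log2 of the deposited intensities with limma 3.58.1 (R 4.3.3; lmFit and eBayes). P-values were adjusted by Benjamini-Hochberg over all features, and an adjusted p under 0.05 was called. The fit was tested on simulated data. For a gene detected in no control, the bound used the lowest detected signal of each array. Named were the 12 largest rises and falls called against both sets of controls, up to 4 called members of each list in either direction, the 6 genes with the largest SD among adenomas, and those that moved most between control sets. Members of lists that did not pass are given by value, and which of them to give was chosen after their values were seen. Other names are marked in the text. Members and lists were chosen with earlier results of these data known. The number of arrays limits the precision. Sample numbers are not known to be batches.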

Additional observations from a re-analysis of the deposited data

Results flagged for a closer look

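In 4 of the 164 named genes 1 adenoma stood apart from the other 3, and in 16 of them 1 control stood apart from the other 9, by a gap to the nearest sample larger than Dixon's limit for the group's range. Chance alone flags about 1 group in 20, a larger share than the 4 of 164 among adenomas and a smaller one than the 16 of 164 among controls. Among the adenomas, sample 43 was low for Akr1b8 (13.36, next 14.19) and high for Hao2 (9.60, next 8.54), both nearer to control than the rest. Sample 42 was high for Vil1 (12.16, next 8.10), and sample 37 low for Keap1 (10.10, next 10.33). Vil1 was named for its large SD among these same adenomas, so its flag follows in part from that choice.

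Among the controls, sample 27 was high for Krt19 (8.76), Gpc3 (8.55) and Cryab (8.51), all of which rose in the adenomas, and low for Cyp8b1 (13.14) and Cyp2c7 (14.62), which fell. Sample 14 was low for Cyp2c12 (8.80) and high for C1qb (12.57) and Hmox1 (10.91). Sample 47 was low for Akr1c3 (10.56) and Baat (13.14) and high for Tgfbi (10.61). Sample 48 was high for Pcp4 (7.96), and its 8323 detected probes were the fewest of any control, the next having 9078. Sample 26 was low for Mafg (10.40) and Angptl4 (10.08), sample 25 low for Col3a1 (8.15) and sample 12 low for Gdf15 (7.50).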

How the results depend on the processing

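The count of features differing between adenomas and all 10 controls (3510) was within 1.5 times of itself under every alternative run, from 2515 against controls 46 to 48 to 4698 with array weights, and the share higher was 51.1% to 53.3% of calls in all but that first setting (50.7%). Leaving out each adenoma gave 2678 to 3099. For controls 46 to 48 alone (2515), array weights gave 4158 and leaving out 1 sample gave 1541 (without control 48) to 2341. The 61 features between the 2 sets of controls became 311 with array weights and 154 without eHCC 39 and aHCC 29, which was chosen after seeing the data. Adenomas against eHCC gave 0 in all settings. Over all named genes and alternatives 2827 values kept their direction and side of the threshold, 121 lost the call, 11 gained it and 0 reversed. Afp was called with array weights (adjusted p = 0.00293 by limma), with only the compared arrays (3.02e-07) and without eHCC 39 and aHCC 29 (0.0371). Cyp2e1 and Cps1 were called in the same 3 settings. The cause of these moves was not tested. Signal over background limits the dim genes, whose changes neqc enlarged. No paired analysis was possible because the sample numbers name single samples and no number is shared between groups.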

Other observations

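Of 9 heat shock and chaperone genes tested 3 rose and 1 fell, with a median log2 change of 0.13, beside 13.5% and 12.6% of all features. Hspd1, the mitochondrial chaperonin, read 14.51, 14.84, 14.66 and 14.60 in adenomas 37, 41, 42 and 43 against 13.41 to 14.02 in the controls (1.81-fold higher). Its lid Hspe1 rose 1.94-fold. The cytosolic Hsp90aa1 rose 1.75-fold, with an adjusted p = 0.0637 by limma against controls 46 to 48, and Dnaja1 fell by 0.35 (adjusted p = 0.187 by limma without adenoma 37 and 0.0631 without 42).

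Of 19 genes of iron handling 2 rose and 2 fell, with a median of 0.06, a share close to or below the 13.5% and 12.6% over all features, so the 4 genes are given as single values. Slc40a1, ferroportin, which exports iron, read 12.98, 13.22, 13.47 and 12.27 against 11.17 to 11.60 and rose 3.05-fold. Ftl1, ferritin light chain, rose 1.87-fold, while the heavy chain Fth1 was not called (-0.14). Tfr2, a sensor of transferrin iron, was 2.37-fold lower (10.39, 10.73, 9.58 and 10.63 against 10.94 to 11.92), and Aco1, which also serves as an iron-regulatory protein, was 1.39-fold lower (adjusted p = 0.248 by limma against controls 46 to 48, and not called without any of adenomas 41, 42 and 43, at most 0.149).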
